A study of Mus musculus with 23 samples.

Results

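The miR-26 family of mouse retina was described in small RNA libraries of wild-type and P23H rhodopsin knock-in mice. Its members were taken by locus name, as the rows of mature miRNA reads for mir-26a-1, mir-26a-2 and mir-26b, and all 3 were found among 903 mature rows. There were 23 libraries, each of 1 retina at postnatal day 90, from 5 groups. P23H+/- knock-in mice had received the mouse rhodopsin gene (mouse gRho, 11 libraries) or the human rhodopsin gene (human gRHO, 3 libraries), both as genomic constructs in DNA nanoparticles, or saline (2 libraries), or were left uninjected (5 libraries). Wild-type (WT) C57B mice were untreated (2 libraries). Titles that differ only in the eye were read as 1 mouse, an inference from the titles, which gave 7 mouse gRho, 2 human gRHO, 1 saline, 3 uninjected and 2 WT mice. No leading number of the titles occurs in more than 1 P23H group, so whatever it marks cannot be told apart from the treatment. P23H is a rhodopsin mutation of retinitis pigmentosa, and all groups apart from WT carry it on 1 allele beside a normal one.

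Each miR-26 precursor lies inside a gene for a small phosphatase of RNA polymerase II, Ctdspl, Ctdsp2 or Ctdsp1. These phosphatases assist REST, the repressor of neuronal genes, and in zebrafish miR-26b was shown to lower its own host ctdsp2 as neurons form. The family is abundant in most mammalian tissues, brain and retina included, and among its known targets is Ezh2, a histone methyltransferase.

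The sequences below, from RefSeq (GRCm38.p6), show what the copies share and what tells them apart. All 3 loci matched an entry. In the mature forms the capitals mark the seed, bases 2 to 8 from the 5′ end, which guides pairing with targets.
miR-26a-5p: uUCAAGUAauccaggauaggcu
miR-26b-5p: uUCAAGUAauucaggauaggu
miR-26a-1-3p: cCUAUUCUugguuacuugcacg
miR-26a-2-3p: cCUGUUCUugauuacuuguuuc
miR-26b-3p: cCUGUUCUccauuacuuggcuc
The 5p arm is the same in both mir-26a loci, so a read of it belongs to either. Between miR-26a-5p and miR-26b-5p the seed is shared, and among mature mouse miRNAs of the table these are the 2 with this seed. Counted from the 5′ end they differ by C11U and C21U over 21 compared bases, and miR-26a-5p is 22 bases long. The 3p arms of mir-26a-1 and mir-26a-2 are identical at 16 of 22 positions, with A4G inside the seed. Those of mir-26a-2 and mir-26b share a seed and are identical at 18 of 22 positions.

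The hairpins show where the arms lie, with both mature arms in capitals.
mir-26a-1: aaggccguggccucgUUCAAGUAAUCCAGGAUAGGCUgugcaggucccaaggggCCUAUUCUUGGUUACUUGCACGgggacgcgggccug
mir-26a-2: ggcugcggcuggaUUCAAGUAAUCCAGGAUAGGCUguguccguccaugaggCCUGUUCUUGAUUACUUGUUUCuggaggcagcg
mir-26b: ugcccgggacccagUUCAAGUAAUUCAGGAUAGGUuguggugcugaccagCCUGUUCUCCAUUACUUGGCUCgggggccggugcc
In GRCm38.p6 the mir-26a-1 hairpin lies at chr9:119031796-119031885, the mir-26a-2 hairpin at chr10:126995530-126995613 and the mir-26b hairpin at chr1:74394310-74394394, each on the + strand, as is its host. In GENCODE M21, on the same build, mir-26a-1 lies in an intron of 3 of 4 Ctdspl transcripts and overlaps no exon of the others. The mir-26b hairpin lies in an intron of 2 of 3 Ctdsp1 transcripts, also with no exon overlap. The mir-26a-2 hairpin is intronic in 1 of 4 Ctdsp2 transcripts and overlaps an exon of 2. The build behind the deposited counts is not given in the sources used here.

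Libraries held between 5968388 and 16048954 mature miRNA reads, and levels are given as counts per 1000000 of these reads (CPM). The mature rows name a locus and no arm, and together they reached between 10.4% and 19.5% of the mature reads. Reads mapping to more than 1 miRNA made up between 5.52% and 17.9% of miRNA reads in the alignment table. That table counts them in a class apart from the mature reads, so CPM are not scaled to them. Their share was lowest in WT mouse 2 and highest in the right eye of mouse gRho mouse 1. How these reads, or reads of the shared 5p arm, enter the rows is not given. A row is thus not a measure of the whole miRNA. Rows of retinal markers had reads in every library, for photoreceptors (3 of 3 rows), neurons (6 of 6) and pigment epithelium with Mueller glia (2 of 2). The 2 libraries lowest in the summed photoreceptor rows came from mouse gRho mouse 1 (right eye, 52.9 CPM) and uninjected mouse 2 (198 CPM), against a median of 691 CPM. In bulk tissue, fewer cells of a type and less RNA per cell cannot be told apart.

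The 3 rows differed in level in a fixed order. The mir-26a-2 row was above the mir-26b row, and that above the mir-26a-1 row, in 23 of 23 libraries. Mean levels over the libraries were 29.9 CPM for mir-26a-2, 6.76 CPM for mir-26b and 1.04 CPM for mir-26a-1, which ranked 106, 191 and 337 of 903 mature rows. The mir-26a-2 row held 28.9 times the summed reads of the mir-26a-1 row, with a range between 7.13 and 143 times in single libraries. Any reads counted in both mir-26a rows can be no more than the mir-26a-1 row holds, at 1 to 26 reads per library.

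**Figure D1:**
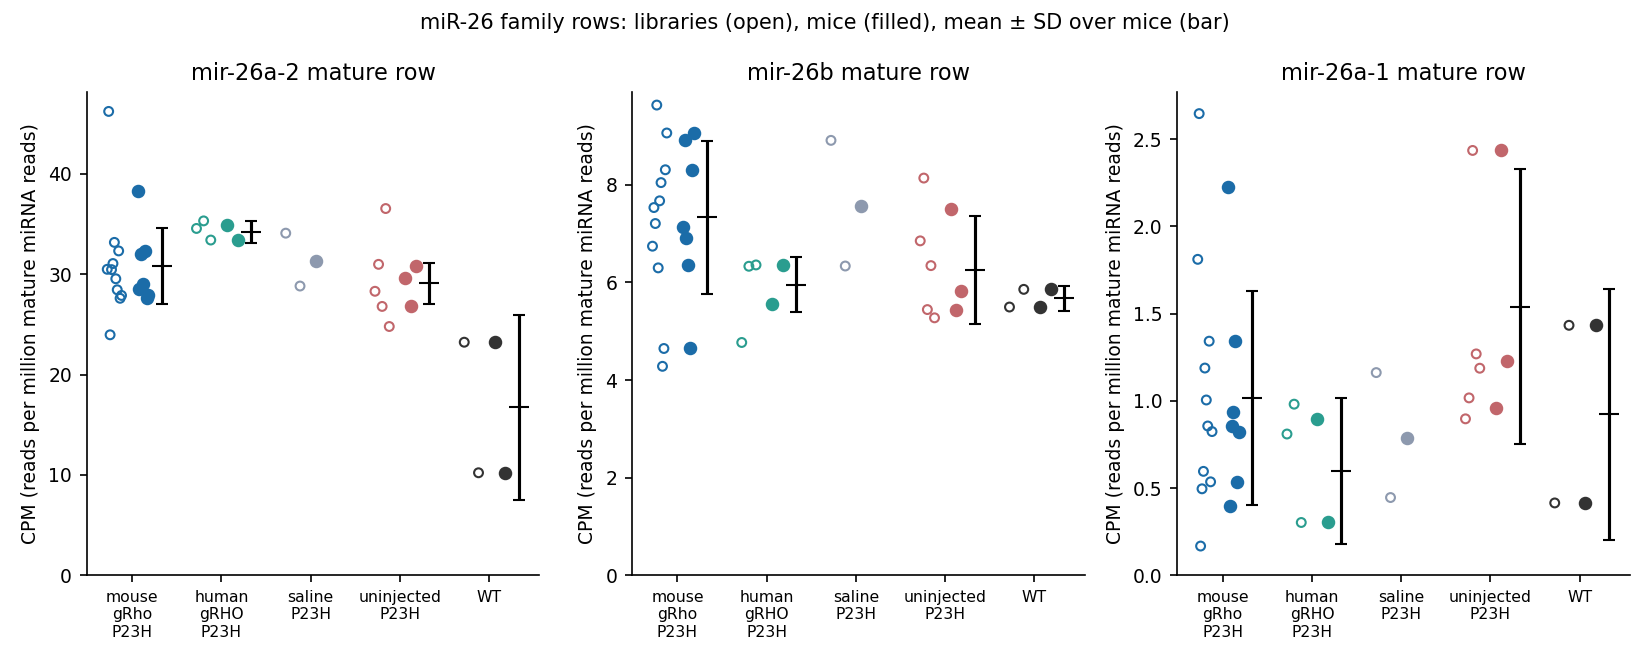
Levels of the 3 mature rows in CPM (linear axes from 0) by group, with libraries as open circles, mice as filled circles and bars for the mean ± SD over mice where a group has more than 1. For mir-26a-2 the WT mice, at 23.2 and 10.2 CPM, lie below all P23H mice, whereas for mir-26b and mir-26a-1 the WT mice lie within the span of the P23H mice.

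The mir-26a-2 row, the highest of the family, had between 23.96 and 46.2 CPM in the 11 mouse gRho libraries, with a median of 30.5 CPM. In human gRHO retinas it measured 34.6 and 35.3 CPM in the left and right eye of mouse 1 and 33.4 CPM in mouse 2. Saline retinas had 34.1 CPM on the left and 28.8 CPM on the right. The human gRHO and saline values all lay inside the range of mouse gRho, whose top was 1 library, the right eye of mouse 1. The next highest mouse gRho library had 33.2 CPM, below all human gRHO values and the left saline value. That right eye was also the library lowest in the summed photoreceptor rows. It had the highest share of reads mapping to more than 1 miRNA, at 17.9% of miRNA reads. The part of this share in the level was not tested. In uninjected P23H retinas the values were 28.3 and 31.0 CPM in the left and right eye of mouse 1, 26.8 CPM in mouse 2, and 36.5 and 24.8 CPM in the left and right eye of mouse 3. WT retinas had 23.2 CPM (95% exact binomial interval 20.3 to 26.5) in mouse 1 and 10.2 CPM (8.71 to 11.9) in mouse 2. The WT libraries were the lowest of the 23, and the lowest P23H library, the left eye of mouse gRho mouse 2 at 23.96 CPM (20.2 to 28.2), had an interval that overlapped that of WT mouse 1. These intervals cover counting error only.

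Summed to mice, the row averaged 30.8 ± 3.8 CPM with mouse gRho (SD, n = 7), 34.2 ± 1.1 CPM with human gRHO (SD, n = 2), 29.1 ± 2.1 CPM in uninjected P23H (SD, n = 3) and 16.7 ± 9.2 CPM in WT (SD, n = 2), beside 31.3 CPM in the saline mouse. All 13 P23H mice, the lowest at 26.8 CPM, lay above both WT mice, as they did for 22 of 382 tested rows (5.76%). This separation depended on the scale. The fits divide CPM further by a factor for composition (TMM), which was 0.734 in WT mouse 2, 1.18 in uninjected mouse 2 and 1.26 in uninjected mouse 3. On that scale WT mouse 1 stood at 24.1 CPM, above uninjected mouse 2 at 22.6 CPM, and WT mouse 2 stood at 13.9 CPM, the lowest of 15 mice. On that scale all P23H mice were above WT for 3.93% of the tested rows.

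**Figure D2:**
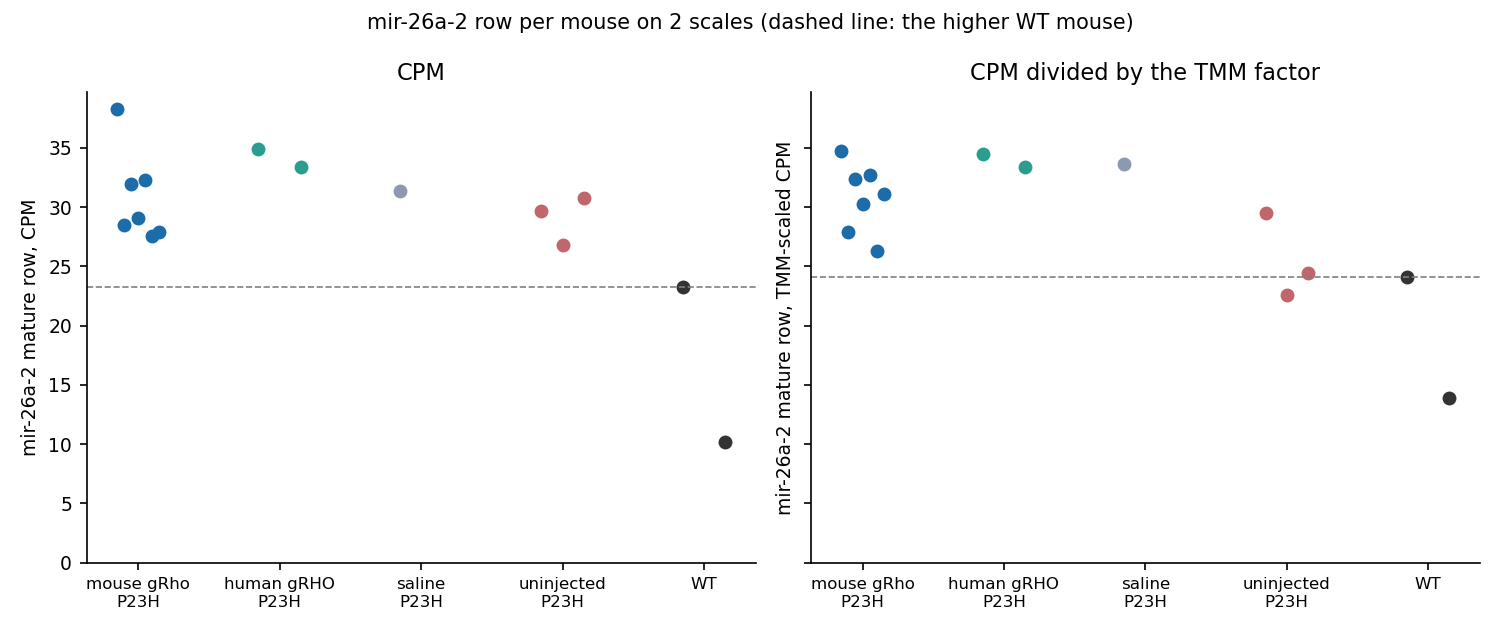
Level of the mir-26a-2 row in each of 15 mice by group, as CPM (left) and as CPM divided by the TMM factor (right), with a dashed line at the higher WT mouse. All P23H mice are above the line at 23.2 CPM on the left, and uninjected mouse 2, at 22.6, falls below the line at 24.1 on the right.

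Against WT, the mir-26a-2 row had positive fold changes in each of 3 comparisons and passed in none. Uninjected P23H differed from WT by a log2 fold change of 0.43 (SE 0.25, 95% interval -0.10 to 0.96, edgeR quasi-likelihood adjusted p = 0.411). Without TMM it was 0.80 (SE 0.31, interval 0.16 to 1.45, edgeR adjusted p = 0.136), on a scale that moved the median of all rows by 0.43. Of all 382 rows, 1.57% passed an adjusted p of 0.05 in this comparison. With mouse gRho the difference from WT was 0.70 (SE 0.23, interval 0.22 to 1.18, edgeR adjusted p = 0.124), with an unadjusted p of 0.00705 that ranked 21 of 382, and 3.14% of rows passed. With human gRHO it was 0.84 (SE 0.27, interval 0.26 to 1.41, edgeR adjusted p = 0.29), with an unadjusted p of 0.00678 that ranked 8, and 0.0% of rows passed, with 38 at an unadjusted p under 0.05 and 5 called by DESeq2. For uninjected P23H and mouse gRho against WT, 63 and 69 rows had an unadjusted edgeR p under 0.05, and DESeq2 called 11 and 18. DESeq2 called no member in these 3 comparisons. The 3 comparisons share the WT mice.

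The size of these differences also depended on which WT mouse was kept. Leaving out WT mouse 1 gave log2 fold changes of 0.98 for uninjected P23H, 1.21 for mouse gRho and 1.32 for human gRHO, and each passed (edgeR adjusted p = 0.0141, 0.00223 and 0.00349). The share of all rows called was also higher, at 15.7%, 16.8% and 12.0% of 382 rows in the same order. Without WT mouse 2 they were 0.16, 0.40 and 0.47 (edgeR adjusted p = 0.848, 0.615 and 0.984), and 0.0% of 380 rows passed in each, with 24, 26 and 17 at an unadjusted p under 0.05. The lone WT mouse is then assumed to vary like the other groups. WT mouse 2 also differed from WT mouse 1 in marker rows. Its summed photoreceptor rows stood at 306 CPM against 1101 CPM, and those of pigment epithelium with Mueller glia at 53.7 CPM, the lowest library, against 99.6 CPM. The muscle rows (5 of 5 present, 3 of which jump between 2 levels across libraries) summed to 92779 CPM in WT mouse 2, the highest library, and to 46146 CPM in WT mouse 1, within a range of 653 to 92779 CPM over all libraries. Reads mapping to more than 1 miRNA were 5.52% of miRNA reads in WT mouse 2, the lowest library, and 10.1% in WT mouse 1. The part of these markers and of this share in the result was not tested.

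Gene delivery was compared with no injection to ask whether treatment altered the family. With either gene the comparison holds the injection as well, and neither was compared with saline, so gene and injection cannot be told apart. No member passed in the comparisons with uninjected P23H, and 0.0% of the 382 rows did with mouse gRho, human gRHO or saline by edgeR. At an unadjusted p under 0.05 there were 18, 10 and 13 rows in these comparisons, no member among them, and DESeq2 called 0 in each. The mir-26a-2 row differed by 0.27 on the log2 scale with mouse gRho (SE 0.19, interval -0.13 to 0.67, edgeR adjusted p = 0.913). With human gRHO the difference was 0.41 (SE 0.24, interval -0.10 to 0.93, edgeR adjusted p = 0.93), and with saline 0.40 (SE 0.30, interval -0.24 to 1.04, edgeR adjusted p = 0.91). Saline is 1 mouse, so its errors and p-values here and for the other members hold no spread of its own group and assume that of the others. Without TMM the mir-26a-2 differences were 0.083 with mouse gRho, 0.23 with human gRHO and 0.11 with saline, and the median of all rows moved by -0.188, -0.187 and -0.287. Without the 6 libraries with rRNA over 3% of aligned reads, which leaves 1 uninjected mouse, they were 0.19, 0.25 and 0.23. Both human gRHO mice were above the 3 uninjected mice in CPM, as for 9.95% of rows, and also on the TMM scale, as for 14.4%. The 3 comparisons share the uninjected mice. Between the constructs, human gRHO differed from mouse gRho by 0.14 (SE 0.21, interval -0.31 to 0.59, edgeR adjusted p = 0.997, with 0.0% of rows passing, 11 at an unadjusted p under 0.05 and 0 by DESeq2), which does not show that they act alike.

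**Figure D3:**
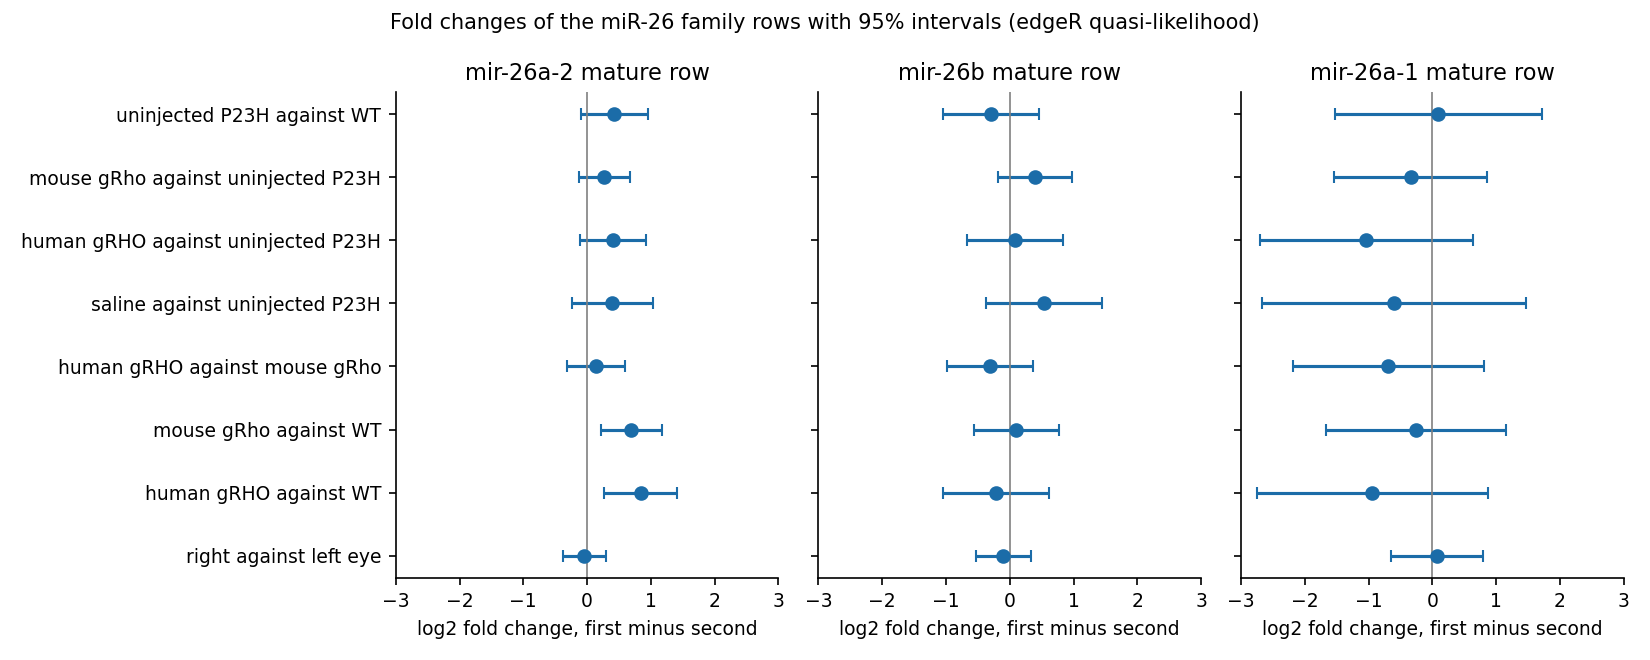
Log2 fold changes (first group minus second) of the 3 mature rows in 7 group comparisons and between the eyes, with points for the edgeR estimate and bars for its 95% interval. The intervals of mir-26a-2 lie above 0 for mouse gRho (0.22 to 1.18) and human gRHO (0.26 to 1.41) against WT, and all others include 0. No adjusted p was at or under 0.05.

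The mir-26b row, whose 5p arm carries the family seed from the Ctdsp1 locus, held 38 to 136 reads per library. It ranged between 4.28 and 9.63 CPM with mouse gRho, with a median of 7.53 CPM. Human gRHO retinas had 4.77 and 6.33 CPM in the left and right eye of mouse 1 and 6.36 CPM in mouse 2, and saline retinas 8.91 CPM on the left and 6.33 CPM on the right. Uninjected retinas had 6.85 and 8.14 CPM in mouse 1, 5.44 CPM in mouse 2, and 6.34 and 5.27 CPM in mouse 3, left before right. WT retinas had 5.49 and 5.86 CPM in mice 1 and 2. The WT values fell inside the library range of mouse gRho, human gRHO and uninjected retinas and below both saline values. Over mice the row averaged 7.33 ± 1.57 CPM with mouse gRho (SD, n = 7), 5.96 ± 0.57 CPM with human gRHO (SD, n = 2), 6.26 ± 1.10 CPM uninjected (SD, n = 3) and 5.68 ± 0.26 CPM in WT (SD, n = 2).

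No comparison of mir-26b passed. Its log2 fold change was 0.39 with mouse gRho against uninjected (SE 0.27, interval -0.18 to 0.97), 0.08 with human gRHO (SE 0.36, interval -0.67 to 0.83) and 0.54 with saline (SE 0.43, interval -0.38 to 1.45). Human gRHO stood -0.31 from mouse gRho (SE 0.32, interval -0.99 to 0.36). Against WT the differences were -0.29 uninjected (SE 0.36), 0.10 with mouse gRho (SE 0.32) and -0.21 with human gRHO (SE 0.39). The adjusted p-values by edgeR lay between 0.681 and 0.999. The negative sign for uninjected P23H turned to 0.15 without TMM. Without the 6 libraries with rRNA over 3% of aligned reads, which include all those of 2 uninjected mice, the differences from uninjected were 0.053 with mouse gRho, -0.29 with human gRHO and 0.17 with saline.

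The mir-26a-1 row, from the Ctdspl locus, was sparse, with 1 to 26 reads per library. Its lowest library was the left eye of mouse gRho mouse 2, with 1 read (0.168 CPM, exact interval 0.004 to 0.934). Its 3 highest were the right and left eye of mouse gRho mouse 1, at 2.65 CPM (1.73 to 3.88) and 1.81 CPM, and uninjected mouse 2, at 2.44 CPM (1.42 to 3.90). The first and the last of these libraries are the 2 poorest in photoreceptor rows, whereas the left eye of mouse gRho mouse 1 had 943 CPM of them; the part of this in the level was not tested.

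Human gRHO retinas had 0.81 and 0.98 CPM of mir-26a-1 in the left and right eye of mouse 1 and 0.30 CPM, from 3 reads, in mouse 2. Saline retinas had 1.16 CPM on the left and 0.45 CPM on the right. In uninjected retinas outside mouse 2, values were 0.90 and 1.02 CPM in mouse 1 and 1.27 and 1.19 CPM in mouse 3, left before right, and in WT retinas 0.41 CPM in mouse 1 and 1.43 CPM in mouse 2. The libraries of the groups overlapped. Summed to mice, human gRHO, at 0.90 and 0.30 CPM, lay below the 3 uninjected mice, the lowest of which had 0.96 CPM, as for 17.5% of tested rows in CPM and 11.3% on the TMM scale, where mir-26a-1 was also below. Over mice the means were 1.02 ± 0.61 CPM with mouse gRho (SD, n = 7), 0.60 ± 0.42 CPM with human gRHO (SD, n = 2), 1.54 ± 0.79 CPM uninjected (SD, n = 3) and 0.92 ± 0.72 CPM in WT (SD, n = 2).

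No comparison of mir-26a-1 passed, with edgeR adjusted p-values between 0.689 and 0.997. Log2 fold changes against uninjected were -0.34 with mouse gRho (SE 0.57, interval -1.54 to 0.86), -1.04 with human gRHO (SE 0.79, interval -2.71 to 0.64) and -0.60 with saline (SE 0.98, interval -2.67 to 1.46). Human gRHO stood -0.69 from mouse gRho (SE 0.71), which was -1.66 without human gRHO mouse 1 and -0.23 without human gRHO mouse 2. Leaving out 1 mouse moved the difference of human gRHO from uninjected between -2.06 and -0.64. Against WT they were 0.09 uninjected (SE 0.77), -0.25 with mouse gRho (SE 0.67) and -0.95 with human gRHO (SE 0.86). Each of these 7 intervals reached past a 2-fold change in at least 1 direction.

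Over the 21 P23H libraries the coefficient of variation was 15.4% for mir-26a-2, 21.8% for mir-26b and 60.0% for mir-26a-1. Counting alone would give 5.63%, 11.98% and 31.2%, and the rest includes differences between mice, eyes and treatments. The fitted biological coefficient of variation was 0.226 for mir-26a-2, and 12 of 382 tested rows had a lower one. For mir-26b it was 0.302 (91 rows lower) and for mir-26a-1 0.532 (278 rows lower), beside a median of 0.416. The order differed without the fit. Over all 15 mice, groups pooled and without TMM, the SD of log2(CPM + 0.5) was 0.427 for mir-26a-2 and 0.264 for mir-26b. For mir-26a-1 it was 0.545, beside a median of 0.478 over the tested rows.

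Within the family, the log2 ratio of the mir-26b row to both mir-26a rows together needs no library scale. How reads of the arm shared by the mir-26a loci enter these rows is not given. The ratio thus compares rows and need not be the balance of the whole miRNAs. It ranged from -2.84 to -1.66 in mouse gRho mice (mean -2.13 ± 0.45, SD, n = 7) and from -2.45 to -2.03 in uninjected mice (mean -2.30 ± 0.24, SD, n = 3). The difference of 0.16 was within the spread (two-sided exact permutation test over mice, p = 0.592, adjusted p = 0.592 over 2 ratio tests). Human gRHO mice stood at -2.68 and -2.40 and the saline mouse at -2.08. Over the 13 P23H mice the mean was -2.23 ± 0.37, against -1.54 ± 0.78 in WT (SD, n = 13 and 2), a difference of -0.69 (exact permutation p = 0.0667, adjusted p = 0.133). WT mouse 2, at -0.99, was the highest of 15 mice, and WT mouse 1, at -2.09, was among the P23H mice. Without WT mouse 2 the difference was -0.13, and without WT mouse 1 it was -1.24.

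**Figure D4:**
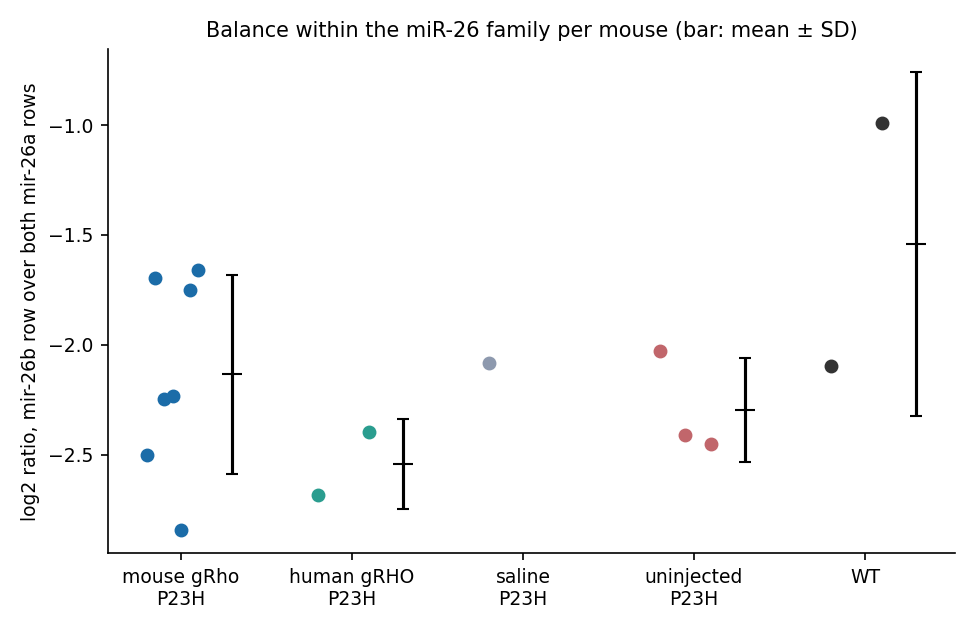
Log2 ratio of the mir-26b row to the sum of both mir-26a rows in each mouse, by group, with bars for the mean ± SD where a group has more than 1 mouse. WT mouse 2, at -0.99, stands above the 14 other mice, which lie between -2.84 and -1.66. Rows are compared here, not whole miRNAs.

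Right and left retinas were compared in the 8 P23H mice with both eyes. In CPM the right eye was higher in 5 of 8 mice for each row. For mir-26a-2 the difference between the eyes ran from -0.55 (log2, right minus left) in uninjected mouse 3 to 0.59 in mouse gRho mouse 1, whose right eye had 46.2 CPM and left eye 30.5 CPM. That right eye was the library lowest in the summed photoreceptor rows, at 52.9 CPM against 943 CPM on the left. The part of this in the difference was not tested. For mir-26b it ran from -0.84, in mouse gRho mouse 4, to 0.40, in mouse gRho mouse 2. In the fit with a term for the mouse, right minus left was -0.04 for mir-26a-2 (SE 0.15), -0.10 for mir-26b (SE 0.20) and 0.07 for mir-26a-1 (SE 0.33), with an edgeR adjusted p of 0.965 each and 0.0% of 382 rows passing. At an unadjusted p under 0.05 there were 12 rows, no member among them, and DESeq2 called 0.

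**Figure D5:**
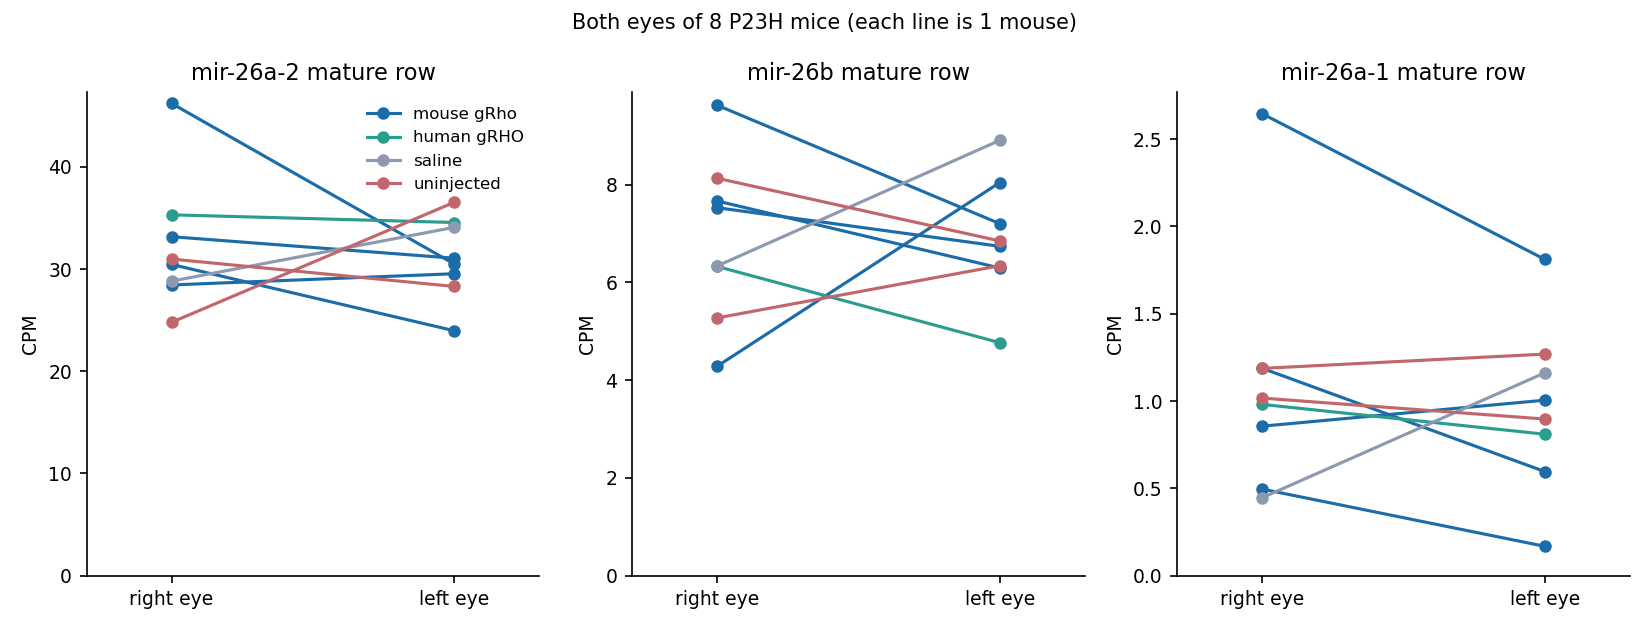
CPM of the 3 mature rows in the right and left eye of 8 P23H mice, with 1 line per mouse coloured by group. Lines run in both directions in each panel, and the right eye of mouse gRho mouse 1 is the highest library for mir-26a-2 (46.2 CPM) and mir-26a-1 (2.65 CPM). That library is also the lowest in the summed photoreceptor rows (52.9 CPM).

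Other read classes of the loci gave a second, shallow readout. The precursor row of mir-26a-2 held 182 reads, at 0 to 14 per library, with 6 in WT mouse 1 and 0 in WT mouse 2, which allows up to 0.187 CPM (3 counts) there. Its stemloop row held 66 reads, the precursor row of mir-26b 55 and that of mir-26a-1 16. Among the precursor rows of the family that of mir-26a-2 held the most reads, as its mature row did among the mature rows. Pooled over libraries, its precursor row stood at 0.833 CPM in P23H and 0.234 CPM in WT, and that of mir-26b at 0.223 CPM and 0.311 CPM. No test was run on these few reads.

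Levels of the members were correlated over the 15 mice as a description. Spearman's rho was 0.04 between the mir-26a rows, -0.03 between mir-26a-2 and mir-26b, and -0.46 between mir-26a-1 and mir-26b, where the points share depth as a denominator. The rows most like mir-26a-1 were mir-27b (rho 0.88), mir-450b (0.84) and mir-3061 (0.775). Those most like mir-26a-2 were let-7b (0.65), mir-362 (0.64) and mir-203 (0.61), and those most like mir-26b were mir-12192 (0.67), mir-181b-1 (0.67) and mir-6926 (0.66). The highest of many rows are named here, as a description.

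Other miRNAs of the REST and CTDSP circuit were set beside the family. The list holds miR-124 and miR-9, neuronal miRNAs known to target Ctdsp1 and REST, with miR-132, miR-212, miR-137 and miR-218. Of its 11 loci 9 were tested, and 0 passed in any of the 7 group comparisons. At an unadjusted p under 0.05 there were 3 rows with saline against uninjected, 1 with mouse gRho against WT and 1 with human gRHO against WT by edgeR, and DESeq2 called 0 in each comparison. The copies of miR-124 and of miR-9 may count the same reads. Against uninjected P23H the median log2 fold change was 0.31 with mouse gRho (9 of 9 above 0), 0.45 with human gRHO (9 of 9) and 0.61 with saline (8 of 9), beside medians of 0.079, 0.01 and -0.005 over all rows. These comparisons share the uninjected mice, so their directions are not independent. Among those, mouse 2 had 4574 CPM in the summed neuron rows, against a median of 9597 CPM over all libraries. Most of this sum is miR-9, whose rows averaged 2498 to 3174 CPM over the mice, beside 92.2 to 92.4 CPM for those of miR-124. The part of this low sum in the directions was not tested. Human gRHO against mouse gRho, which leaves out the uninjected mice, had a median of 0.115 (9 of 9 above 0), beside -0.044 over all rows. Against WT the medians were -0.034 with mouse gRho (3 above 0, 6 below) and -0.007 with human gRHO (4 above, 5 below). As copies may share reads, 9 of 9 rows need not stand for 9 miRNAs. For uninjected P23H against WT the median of the list was -0.33, with 1 row above 0 and 8 below, beside -0.09. In that comparison mir-26a-2 stood at 0.43, mir-218-1 at 0.99 (SE 0.55, edgeR adjusted p = 0.383) and mir-124-1 at -0.73 (SE 0.45, edgeR adjusted p = 0.446).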

How the data were processed

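A table that the authors deposited gives counts of reads by miRNA locus and class (mature, precursor, stemloop, unannotated), and the other counts of reads by library and alignment class, per the file headers. Retinas were flash frozen, extracted with Trizol and made into NEXT Flex small RNA v3 libraries, per the labels' protocols. The submitters' processing notes name DESeq2, and which aligner, miRNA annotation and build were used is not given in the sources used here. No matrix column was left unused (0).

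CPM are row counts per 1000000 mature miRNA reads of the alignment table. Counts of both eyes were summed to 15 mice and tested with edgeR 4.0.16 (quasi-likelihood, robust; R 4.3.3), 5 groups in 1 fit, TMM factors on those mature reads. Rows needed 10 or more counts in 3 or more mice, and those jumping between 2 levels (65 of 337 rows reaching 30 reads; largest gap in sorted log2(CPM + 0.5) at least 3.5, or 2 with 2 libraries on each side) were set aside, leaving 382, with Benjamini-Hochberg adjustment. No miR-26 row was set aside. The fit was run on simulated counts with changes set between mouse gRho and uninjected P23H, which does not cover the other comparisons. No libraries of 1 group agreed within counting noise. The labels name no animals, so p-values reflect only how far these sums differ from each other, some of which may be technical. The family ratio is log2 of counts with 0.5 added, with exact permutation tests over mice. Named rows are the members, the 3 rows most like each over the mice, and the circuit list. Members, lists and settings were chosen with earlier results of these data known. Alternatives (DESeq2 1.42.0, scales, filters, libraries left out, mice left out) are given in the closing section.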

Additional observations from a re-analysis of the deposited data

How the results depend on the processing

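No member passed an adjusted p of 0.05 under the alternatives run, except mir-26a-2 without WT mouse 1. No paired analysis was possible because the labels give no replicate numbers shared between groups; the eyes were paired by mouse. Of 237 values of single rows or ratios under other settings, 218 kept their direction and side of the threshold and 18 changed sign, each of a difference that had not passed. The cause of these changes was not tested. Without TMM, mir-26b stood at 0.15 (uninjected against WT), -0.079 (human gRHO against uninjected) and 0.066 (human gRHO against WT), mir-26a-1 at 0.11 (mouse gRho against WT) and the eye difference of mir-26a-2 at 0.044. Without the 6 libraries with rRNA over 3% of aligned reads, which leaves 1 uninjected mouse, mir-26b stood at 0.043 (uninjected against WT) and -0.29 (human gRHO against uninjected). On the same libraries mir-26a-1 stood at -0.42 (uninjected against WT) and 0.26 (mouse gRho against uninjected), the eye differences at 0.047 (mir-26a-2) and -0.12 (mir-26a-1), and the ratio for mouse gRho against uninjected at -0.18. Without the 2 libraries poor in retinal miRNAs, mir-26a-1 stood at -0.36 (uninjected against WT) and mir-26b at -0.071 (human gRHO against uninjected). With libraries in place of mice, mir-26a-1 stood at -0.0305 and mir-26b at -0.012 in the same comparisons, and the ratio of P23H against WT at -0.70 (exact permutation p = 0.0435), where eyes of 1 mouse count as independent. With only the groups compared, mir-26b stood at -0.014 (human gRHO against uninjected), and over mir-26a-1 alone the ratio of P23H against WT was 0.056.
Leaving out 1 mouse at a time, the number of members passing ranged from 0 to 1 in each comparison with WT (1 without WT mouse 1, where 60, 64 and 46 of all 382 rows passed), and mir-26a-2 from 0.16 to 0.98 (uninjected), 0.40 to 1.21 (mouse gRho) and 0.47 to 1.32 (human gRHO). For mir-26b the ranges were -0.44 to 0.036, -0.051 to 0.42 and -0.40 to 0.022 in the same order, and -0.083 to 0.25 for human gRHO against uninjected. For mir-26a-1 they were -0.47 to 1.67, -0.86 to 1.28 and -1.91 to 0.52 against WT, and -0.72 to 0.078 for mouse gRho against uninjected. Eye differences ranged from -0.11 to 0.092 (mir-26a-2), -0.18 to 0.011 (mir-26b) and -0.056 to 0.23 (mir-26a-1). Leaving out the single saline mouse gives no value. Depth limits mir-26a-1 most, at 1 to 26 reads per library.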
